A study of Drosophila melanogaster with 12 samples.

Results

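The sex difference in expression of a whole fly at a given stage can be written as the log2 level in females minus the log2 level in males. The subject here is how far that difference moved between the pupal and the adult stage in Drosophila melanogaster. The interaction of sex and stage is the female minus male difference in adults minus the same difference in pupae. It equals the change between pupae and adults in females minus the change between pupae and adults in males. A positive interaction therefore means that the sex difference moved towards females, and a negative interaction that it moved towards males. It was computed for every probe set that is not a control, 18769 of 18952, from the group means of 8 of the 12 arrays of the series, and no probe set was dropped for a low value.

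The 8 arrays hold 4 groups of 2 biological replicates each: female adults, male adults, female pupae and male pupae. Each replicate was made of 10 animals of LHm, an outbred laboratory population kept at 25 °C, and no group carried a mutation, a transgene or a treatment that the labels name. Vials were started at staggered times so that all stages could be collected together, total RNA of whole animals was hybridised to Affymetrix Drosophila Genome 2.0 arrays, and the deposited values are on the log2 scale. The age of the pupae within the pupal stage and the age and mating status of the adults are not given in the labels. The other 4 arrays, of female and male larvae of the third instar, have no part in the means that form the interaction. They share the variance estimate of the fit and serve below as a further readout. With 2 arrays a group, p-values measure the spread between these pools of animals.

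As background, sex in Drosophila is set in each cell by a splicing cascade. The protein of Sex-lethal (Sxl), made in females, directs the splicing of transformer (tra), which directs the splicing of doublesex (dsx), and the male and female forms of the doublesex protein then control most sexually dimorphic traits. The testis already holds germ cells in meiosis in larvae, and spermatids elongate in the pupa. The ovary reaches yolk uptake and eggshell formation only in the adult, and the accessory gland, whose secretions form much of the seminal fluid, differentiates in the pupa and secretes in the adult.

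The sex difference changed between the stages for 9674 probe sets, 51.5% of those tested, at a Benjamini-Hochberg adjusted p below 0.05 in limma, the threshold meant by "called" throughout. The interaction was positive for 4891 of them (26.1%) and negative for 4783 (25.5%). Counted by gene, with the brightest probe set standing for each of 11982 genes, 4093 genes had a positive interaction (34.2%) and 3670 a negative one (30.6%). The interaction exceeded 2-fold for 2826 genes in the positive and 2446 in the negative direction, 16-fold for 206 and 176, and 256-fold for 8 and 30. The median interaction was -0.10 over all probe sets and -0.02 over genes.

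The arrays of the sexes differed in their overall level, which bears on small interactions. Array medians were 6.27 to 6.44 on the 4 female arrays and 6.73 to 6.81 on the 4 male arrays. The 18 probe sets of bacterial transcripts that are added before hybridisation had a median female minus male difference of 0.01 in adults and 0.73 in pupae, so their median interaction was -0.75 (range -0.98 to -0.08). Their part in the results was not tested. Centring each array on its median moved the median interaction of all probe sets to 0.00.

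A plot of the sex difference in adults against that in pupae shows where the called genes lie. A gene had a 2-fold call at a stage when the sex difference there was called and at least 2-fold. In adults 27.2% of all genes were female-higher by this rule and 24.7% male-higher, whereas in pupae 5.31% were female-higher and 14.6% male-higher. Of the genes with a called interaction, 3063 were female-higher in adults with no 2-fold call in pupae, and 1207 were male-higher in adults with no 2-fold call in pupae. The sex difference of pupae had no 2-fold counterpart in adults for 116 genes that were male-higher in pupae and for 382 that were female-higher in pupae. It turned round, by at least 2-fold at both stages, for 52 genes that were female-higher in adults and male-higher in pupae and for 159 that were male-higher in adults and female-higher in pupae. A further 465 genes kept the direction with a changed size, and 2319 had no 2-fold call at either stage. The classes rest on the 2-fold limit: counting called differences of any size, the sexes were in opposite order at the 2 stages in 1986 genes with a called interaction. They also moved with the scaling. After array-median centring the class of 1207 had 501 genes and the class of 382 had 1175, and after recentring the class of 382 had 209. Sex calls of any size were more common: 42.1% of all genes were female-higher and 35.7% male-higher in adults, and 50.3% were female-higher and 19.9% male-higher in pupae.

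**Figure D1:**
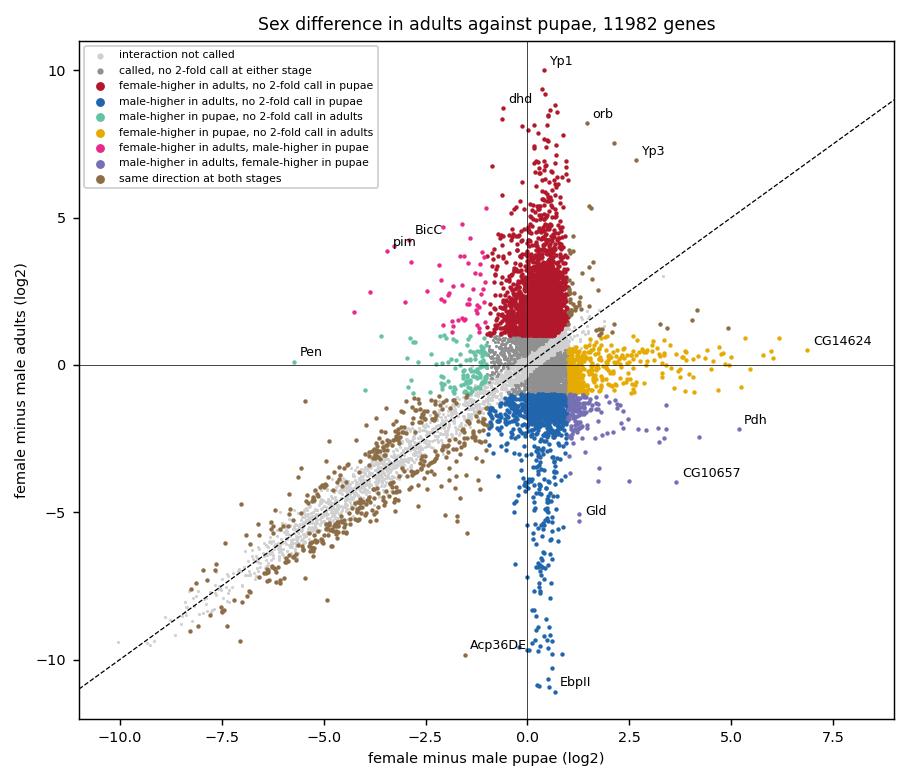
Female minus male log2 difference in adults (vertical axis) against that in pupae (horizontal axis) for 11982 genes, with the interaction as the vertical distance from the dashed diagonal. The red column (3063 genes) and the blue column (1207 genes) stand over a pupal difference near 0, and pink (52 genes) and purple (159 genes) points lie where the sex difference turned round.

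The change between the stages within each sex shows which sex carried an interaction. Between pupae and adults 35.6% of genes were higher and 29.9% lower in adult females, and 23.5% were higher and 40.8% lower in adult males. Among the 4093 genes with a positive interaction, 1822 were higher in adult than in pupal females and lower in adult than in pupal males. Another 956 were higher in adult females with no call in males, and 711 were lower in adult males with no call in females. Among the 3670 genes with a negative interaction, 494 were lower in adult females and higher in adult males, 773 were higher in adult males with no call in females, and 678 were lower in adult females with no call in males. In 894 further genes with a negative interaction both sexes were lower as adults than as pupae, females by more, and in 782 both were higher as adults, males by more. The median change of the genes with a positive interaction was 0.77 in females and -0.61 in males, and that of the genes with a negative interaction -0.52 in females and 0.54 in males.

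**Figure D2:**
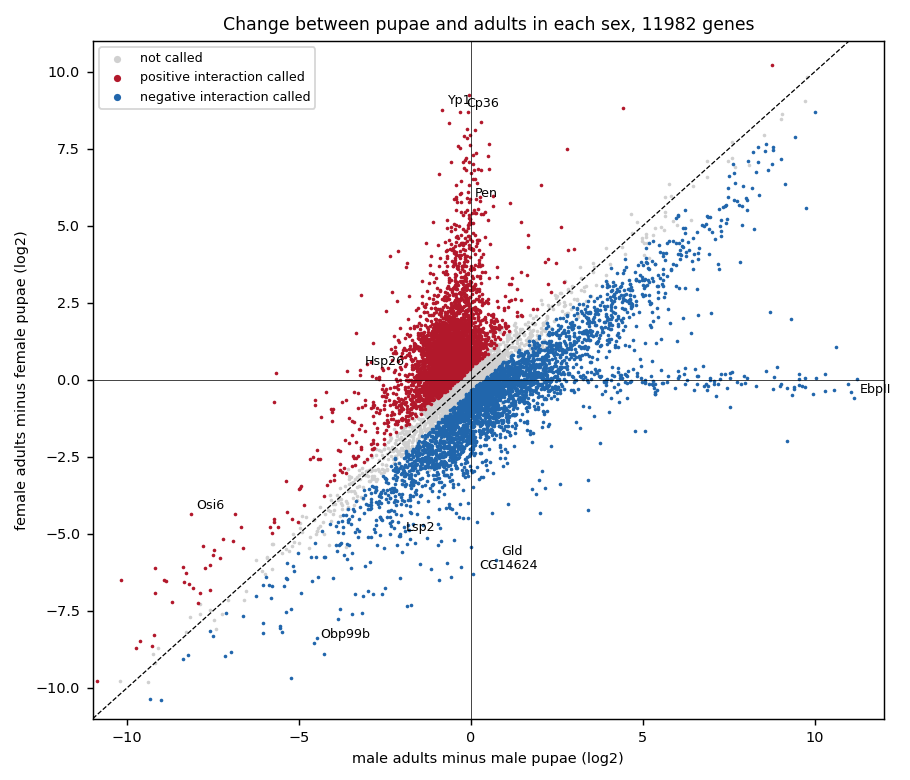
Adult minus pupal log2 change in females (vertical axis) against the same change in males (horizontal axis) for 11982 genes, with genes called in the interaction in red (positive, 4093) and blue (negative, 3670). The arm of red points upwards near a male change of 0 holds Yp1 and Cp36, and the arm of blue points to the right near a female change of 0 ends at EbpII.

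The genes with the largest positive interaction of all those measured encode yolk, eggshell and egg proteins. Yp1, a yolk protein, was at 14.12 and 14.16 in female adults, 4.38 and 3.89 in male adults, 5.19 and 5.58 in female pupae and 4.39 and 5.59 in male pupae. Both female adult arrays stood far above the other 6, which overlapped between female pupae and male pupae. The interaction of Yp1 was 9.61 ± 0.46 (SE of the log2 value here and below; adjusted p = 4.99e-08). Cp36, a chorion protein of the eggshell, was at 14.62 and 14.71 in female adults, 5.47 and 5.14 in male adults, 6.26 and 5.69 in female pupae and 5.43 and 5.80 in male pupae, with an interaction of 9.0 ± 0.31 (adjusted p = 5.09e-09). The pupal groups of Cp36 again overlapped. The other genes of this rank were dhd, a thioredoxin of the female germline (9.31 ± 0.36), mtrm, an inhibitor of Polo kinase in the oocyte (8.97 ± 0.13), Yp2 (8.76 ± 0.23), the chorion genes Cp15 (8.24 ± 0.29) and Cp19 (8.09 ± 0.19), and osk, which sets up the germ plasm at the posterior of the egg (8.13 ± 0.27). The osk value is that of the brightest of 3 probe sets, and the others gave 9.4 and 5.6.

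Gene lists by function described the female side as groups. The shares to set beside the calls of each list are those of all genes, 34.2% positive and 30.6% negative. All 3 yolk protein genes and all 17 measured chorion and vitelline membrane genes had a positive interaction, with medians of 8.76 and 6.77. Yp3 differed from Yp1 and Yp2 in that its sex difference was present before the adult: it was at 14.80 and 14.84 in female adults, 8.03 and 7.73 in male adults, 8.54 and 8.47 in female pupae and 5.79 and 5.89 in male pupae. The 4 groups of Yp3 did not overlap within a stage, the sex difference was 6.94 in adults and 2.66 in pupae, and the interaction was 4.27 ± 0.24 (adjusted p = 1.6e-07). In larvae Yp3 was also female-higher, by 4.73. Of 47 genes of oogenesis and maternal supply, 41 had a positive interaction and 1, tsl, a negative one (-1.50), with a median of 4.23. The translational regulators nanos (7.96 ± 0.27) and orb (6.75 ± 0.29) were among the 41. In these whole animals, a change in the amount of a tissue and a change in RNA per cell cannot be told apart.

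Cell cycle genes moved in the same direction. Of 42 measured genes of DNA replication and mitosis, 41 had a positive interaction and 0 a negative one, with a median of 3.86. Over all genes 34.2% were positive and 30.6% negative. Their median change between pupae and adults was 3.48 in females and -0.47 in males, and 27 of the 42 were lower in adult than in pupal males. CycB, the mitotic cyclin B, was at 13.98 and 13.87 in female adults, 6.25 and 5.87 in male adults, 7.19 and 7.31 in female pupae and 7.07 and 6.91 in male pupae. The female adult values of CycB stood above all others and the male adult values below all others, and the interaction was 7.60 ± 0.18 (adjusted p = 6.32e-10). RnrL, the large subunit of ribonucleotide reductase, had an interaction of 5.77 ± 0.14. The origin and helicase genes Orc1 (5.68), Mcm5 (5.46) and Mcm2 (5.22) and the replication clamp PCNA (5.18) also had a positive interaction, and sub, a kinesin (0.26), was not called.

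Of the piRNA pathway, which silences transposons in the germline, 19 genes were measured in a list of their own. Counted with oogenesis and maternal supply instead were krimp (4.79), spn-E (4.38), mael (4.35) and zuc (4.23). The same holds for aub (3.71), squ (3.3), qin (3.09) and armi (3.08), and all of these had a positive interaction. In the list of 19, a positive interaction was found for 15, led by tej (5.26 ± 0.17), rhi (5.13 ± 0.24) and del (4.73 ± 0.16), which act in piRNA production. The Tudor domain genes tapas (-0.82) and papi (-0.42) had a negative one, both below 2-fold. The negative count was 1 after array-median centring. The list median was 2.84. The gene rhi was at 9.53 and 9.74 in female adults, 4.30 and 4.48 in male adults, 4.45 and 5.03 in female pupae and 4.56 and 4.68 in male pupae. Its female adult values stood apart, and the pupal groups overlapped.

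The genes with the largest negative interaction of all those measured were seminal fluid genes. EbpII, a protein of the ejaculatory bulb, was at 3.16 and 3.11 in female adults, 14.25 and 14.19 in male adults, 3.44 and 4.04 in female pupae and 3.19 and 2.95 in male pupae. Both male adult arrays stood far above the other 6, and the interaction was -11.75 ± 0.24 (adjusted p = 2.85e-10). Next came Ebp (-11.44 ± 0.23), the accessory gland protein genes Acp53C14a (-11.20 ± 0.18), Acp63F (-11.17 ± 0.25), Acp53Ea (-11.10 ± 0.13) and Acp53C14b (-10.90 ± 0.25), and Spn38F (-10.64 ± 0.30) and Spn28F (-10.42 ± 0.18), which encode serpins. Values near 3 lie at the lower end of the scale, which spans 2.47 to 15.61, so the size of such differences is compressed.

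Of 44 measured genes of the accessory gland and ejaculatory duct, 41 had a negative interaction and 0 a positive one, with a median of -7.89. The median change between pupae and adults was -0.13 in females and 7.95 in males. In pupae 2 of the 44 were male-higher and 23 female-higher, with a median difference of 0.39. Of all genes, 50.3% were female-higher and 19.9% male-higher in pupae, so the female-higher share of this list was near that of all genes. One of the 2 was Acp36DE, a seminal protein needed for sperm storage. It was at 4.64 and 4.32 in female adults, 14.28 and 14.36 in male adults, 4.28 and 4.14 in female pupae and 5.80 and 5.70 in male pupae. The sexes did not overlap at either stage, and the interaction was -8.30 ± 0.25 (adjusted p = 2.5e-09). The sex peptide gene SP (-9.61) and Dup99B (-9.95), whose products alter female behaviour after mating, and Acp26Aa (-9.97), the ovulin gene, were in the same list.

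Genes of the testis were male-higher at both stages. Of 63 genes of sperm and spermatids, 58 were male-higher in adults and 60 in pupae, with median differences of -5.29 and -4.65. The interaction was called positive for 6 and negative for 12 of the 63, against 34.2% and 30.6% of all genes, and its median was -0.03, a value whose sign turned under quantile normalization (0.01) and array-median centring (0.07). Of 15 genes of the meiotic arrest programme, which switches on transcription in spermatocytes, 13 were male-higher in adults and 14 in pupae. In that list only mip40 had a called interaction, which was positive (1.64 ± 0.15). The positive count was 2 under several other settings, such as array-median centring, and 3 without the first female pupal array. A missed threshold does not show that the sex difference was equal at the 2 stages.

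Among the 18 sperm and spermatid genes that were called, twe, the meiotic Cdc25 phosphatase, led the positive ones. It was at 9.14 and 8.82 in female adults, 5.20 and 5.37 in male adults, 4.74 and 5.30 in female pupae and 5.73 and 5.76 in male pupae. Female adults stood above the rest, and the interaction was 4.42 ± 0.27 (adjusted p = 2.57e-07). The gene heph, an RNA-binding protein of the polypyrimidine tract family, had an interaction of 3.54 ± 0.20, and here the male adults stood apart: 10.34 and 10.10 in female adults, 6.94 and 7.12 in male adults, 9.77 and 9.67 in female pupae and 10.24 and 9.87 in male pupae. The gene scpr-C went the other way (-3.55 ± 0.29), with a male adult mean of 10.37 against 5.13 in male pupae.

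Muscle genes moved towards males. In 27 measured muscle genes the interaction was negative for 26 and positive for 0, with a median of -2.22. Their median sex difference was -1.54 in adults and 0.68 in pupae, and 26 of 27 were male-higher in adults while 21 of 27 were female-higher in pupae, against 35.7% and 50.3% of all genes. TpnC41C, a troponin C, was at 11.43 and 11.32 in female adults, 13.62 and 13.55 in male adults, 12.33 and 12.45 in female pupae and 11.44 and 11.56 in male pupae. The sexes of TpnC41C did not overlap at either stage and were in opposite order, and the interaction was -3.11 ± 0.20 (adjusted p = 3.47e-07). Mlp84B, a protein of the muscle Z-disc, had -2.94 ± 0.21 and Obsc, obscurin, -2.93 ± 0.19. A second, dimmer probe set of Obsc gave -0.14 ± 0.24, which was not called.

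The same direction was seen in genes of the eye and the nervous system. Of 22 eye and phototransduction genes, 19 had a negative interaction (median -1.99), and of 32 neuronal genes, 28 (median -1.54). Neither list had a positive call, and over all genes 30.6% were negative and 34.2% positive. The light-activated channel gene trp was at 8.21 and 8.54 in female adults, 9.73 and 9.94 in male adults, 8.52 and 8.06 in female pupae and 5.96 and 6.24 in male pupae. Male pupae were the low group and male adults the high group of trp, female adults and female pupae overlapped, and the interaction was -3.66 ± 0.25 (adjusted p = 6.17e-07). The carotenoid uptake gene ninaD had -3.50 ± 0.42. Among neuronal genes, Gad1, which makes the transmitter GABA, had -3.07 ± 0.17, the vesicle fusion gene Snap25 -2.80 ± 0.18 and ChAT, which makes acetylcholine, -2.61 ± 0.13.

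In the list of odorant binding and taste, 27 of 36 genes had a negative interaction and 1, Obp19c (3.74), a positive one. The list median was -1.82, and over all genes 30.6% had a negative and 34.2% a positive interaction. Odorant binding proteins are small secreted carriers of the antenna and of other tissues. Obp99b was at 6.72 and 6.49 in female adults, 10.74 and 10.63 in male adults, 15.21 and 15.13 in female pupae and 15.27 and 15.23 in male pupae. The pupal values lie near the top of the scale, at which differences can be compressed too. The adult values were lower by 8.56 log2 units in females and by 4.56 in males, an interaction of -4.01 ± 0.14 (adjusted p = 7.06e-09). Obp44a had -3.89 ± 0.13, also with an adult difference. Obp73a (-3.87 ± 0.39) came by another route, from a pupal difference: 12.79 and 12.71 in female pupae against 8.03 and 9.11 in male pupae, with all adults between 5.41 and 6.02.

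**Figure D3:**
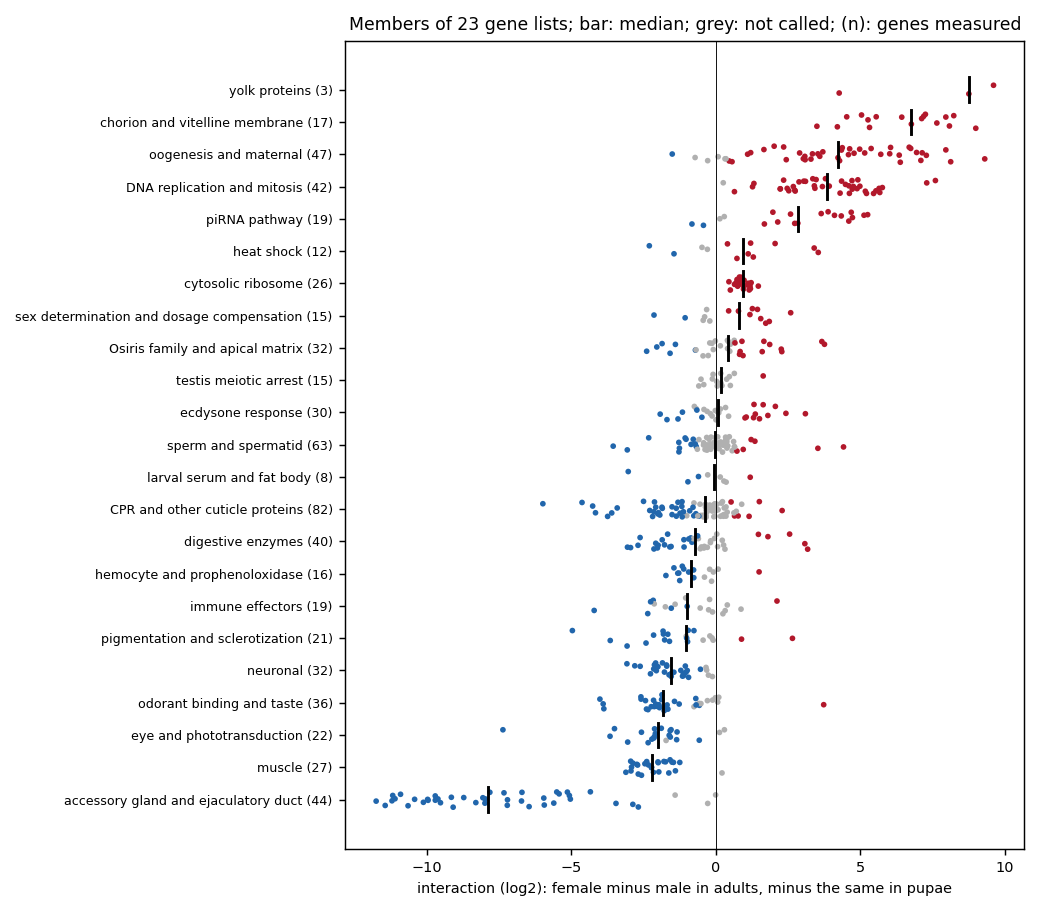
Interaction (log2, horizontal axis) of each measured member of 23 gene lists, ordered by the list median (black bar), with called members in red (positive) or blue (negative) and others in grey. Lists of the egg and of cell division lie to the right of 0, and the accessory gland list lies furthest to the left, with a median of -7.89.

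Genes of the cuticle were divided. Of 82 measured cuticle protein genes, 6 had a positive and 33 a negative interaction, with a median of -0.36. The positive count was below the 34.2% of all genes, and the negative count was above their 30.6%. The positive count moved with single arrays: it was 12 without the second female adult array and 3 without the first female adult, the second male adult or the second female pupal array. In pupae 45 of the 82 genes were female-higher and 6 male-higher, the first close to the 50.3% of all genes and the second below their 19.9%. Cpr50Ca, a chitin-binding cuticle protein, was at 3.71 and 3.44 in female adults, 3.64 and 3.77 in male adults, 12.46 and 12.50 in female pupae and 7.82 and 8.14 in male pupae. The adults overlapped at the bottom of the scale, the pupal sexes did not overlap, and the interaction was -4.62 ± 0.19 (adjusted p = 1.77e-08). Cpr72Ec (-5.98 ± 0.23) and Cpr51A (-4.26 ± 0.28) had the other large values of this list.

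Pigment genes followed the same direction, and genes of the apical matrix did not. Of 21 pigmentation and sclerotization genes, 14 had a negative and 2 a positive interaction (median -1.02), against 30.6% and 34.2% of all genes. The gene yellow (y), needed for black pigment, was at 5.42 and 4.94 in female adults, 5.27 and 5.12 in male adults, 8.19 and 10.86 in female pupae and 4.58 and 4.59 in male pupae. Female pupae stood above the rest but differed between themselves by 2.67 log2 units, and the interaction was -4.96 ± 0.86 (adjusted p = 0.000568). It was -6.29 without the first and -3.62 without the second female pupal array. The relatives yellow-e (-3.65 ± 0.18) and yellow-h (-3.07 ± 0.31) had tighter values. Of 32 genes of the Osiris family and the apical matrix, 12 had a positive and 6 a negative interaction (median 0.43). The positive count was near the share of all genes, 34.2%, and the negative count was below their 30.6%. Osi6 had 3.76 ± 0.42 and the zona pellucida domain gene mey 3.67 ± 0.36, whereas zye, of the same domain class, had -2.39 ± 0.27. For Osi6 and mey both sexes were lower as adults, by 4.38 and 6.51 log2 units in females and by 8.14 and 10.18 in males.

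Ecdysone is the steroid hormone that times moulting and metamorphosis. Of 30 genes of its synthesis and response, 11 had a positive and 6 a negative interaction (median 0.09). For the positive calls this is near the share of all genes, 34.2%, and for the negative calls below their 30.6%. The ecdysone-induced genes ImpE2 (3.10 ± 0.24) and ImpE1 (2.43 ± 0.25) were high in both pupal sexes: ImpE2 was at 7.47 and 7.55 in female adults, 4.52 and 5.01 in male adults, 13.59 and 13.63 in female pupae and 13.94 and 14.00 in male pupae. The adult sexes of ImpE2 did not overlap, and male pupae lay above female pupae by 0.36. For ImpE1 the value and the high pupal level are those of the brightest of 4 probe sets. The others gave 1.09 ± 0.36, which was called, and 0.07 ± 0.19 and -0.68 ± 0.35, which were not. The probe set with 0.07 was dim, with means of 4.77 in female pupae and 4.27 in male pupae. The gene spo, a cytochrome P450 of ecdysone synthesis, had 2.06 ± 0.24 with female adults at 5.46 and 5.79 and all other arrays between 3.10 and 3.82. Because the age of the pupae is not given, a sex difference and a difference in pupal progress between the sexes cannot be told apart for genes that change during the pupal stage.

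Negative calls outnumbered positive ones in the lists of the gut and the blood. Over all genes 30.6% were negative and 34.2% positive. Of 40 digestive enzyme genes, 20 had a negative and 5 a positive one (median -0.70). In adults, 37 of 40 were higher than in pupae in females and 35 of 40 in males, against 35.6% and 23.5% of all genes. The protease gene kappaTry had -3.05 ± 0.31, and Npc2e (3.18 ± 0.42) and the protease gene Ser12 (3.08 ± 0.30) the largest positive values of the list. Of 16 hemocyte and prophenoloxidase genes, 10 had a negative interaction and 1 a positive one (median -0.85), among them Hml, the clotting protein hemolectin (-1.72 ± 0.19), the phagocytosis receptor gene eater (-1.45 ± 0.18) and, on the positive side, the transcriptional cofactor gene ush (1.50 ± 0.18). The medians of the digestive and hemocyte lists lie within the range of the added bacterial transcripts, -0.98 to -0.08. Of 19 immune effector genes, 6 had a negative and 1 a positive one (median -0.99), which for the negative calls is near the share of all genes, 30.6%. The stress-induced gene TotC had -4.21 ± 0.37 and the bomanin peptide genes BomBc3 and BomBc2 -2.35 ± 0.21 and -2.25 ± 0.38. The negative immune count was 10 when only the 8 arrays were fitted.

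The ribosome moved towards females by small amounts. All 26 measured cytosolic ribosomal protein genes had a positive interaction, with a median of 0.93 and a range of 0.46 to 1.47. Their median change was 0.04 in females and -0.89 in males, and all 26 were lower in adult than in pupal males. RpLP0 was at 14.37 and 14.47 in female adults, 13.15 and 13.17 in male adults, 14.21 and 14.27 in female pupae and 14.17 and 14.23 in male pupae, so that male adults alone stood low (interaction 1.23 ± 0.13, adjusted p = 1.17e-05). RpL34a had 1.47 ± 0.14 and RpL3 1.20 ± 0.13. The list holds 26 of 75 entries, since the other entries were matched to no probe set of a single gene.

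Of 12 heat shock genes, 8 had a positive and 2 a negative interaction (median 0.93), against 34.2% and 30.6% of all genes. The small heat shock gene Hsp26 was at 14.17 and 14.14 in female adults, 10.56 and 10.49 in male adults, 13.91 and 13.77 in female pupae and 13.74 and 13.80 in male pupae, with an interaction of 3.55 ± 0.34 (adjusted p = 6.22e-06). Hsp27 gave 3.41 ± 0.20, and in both genes the male adults were the group that stood apart. The small heat shock gene l(2)efl went the other way (-2.30 ± 0.18). Its other probe sets gave -2.53 ± 0.20, which was called, and, on a dim one, -0.375 ± 0.23, which was not. Of 8 larval serum and fat body genes, 3 had a negative and 1 a positive interaction, against 30.6% and 34.2% of all genes. Their median was -0.06, and 0.04 under array-median centring. Lsp2, a storage protein, was at 9.37 and 10.52 in female adults, 12.73 and 13.29 in male adults, 15.03 and 15.03 in female pupae and 15.09 and 15.05 in male pupae (interaction -3.03 ± 0.42, adjusted p = 0.000103). Apoltp, of lipid transport, had -0.96 ± 0.17, and the positive call of hll (1.19 ± 0.39, adjusted p = 0.0259) was lost without any one of 5 arrays, the second female adult, the second male adult, the first female pupal and either male pupal one (adjusted p 0.0507 to 0.104).

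**Figure D4:**
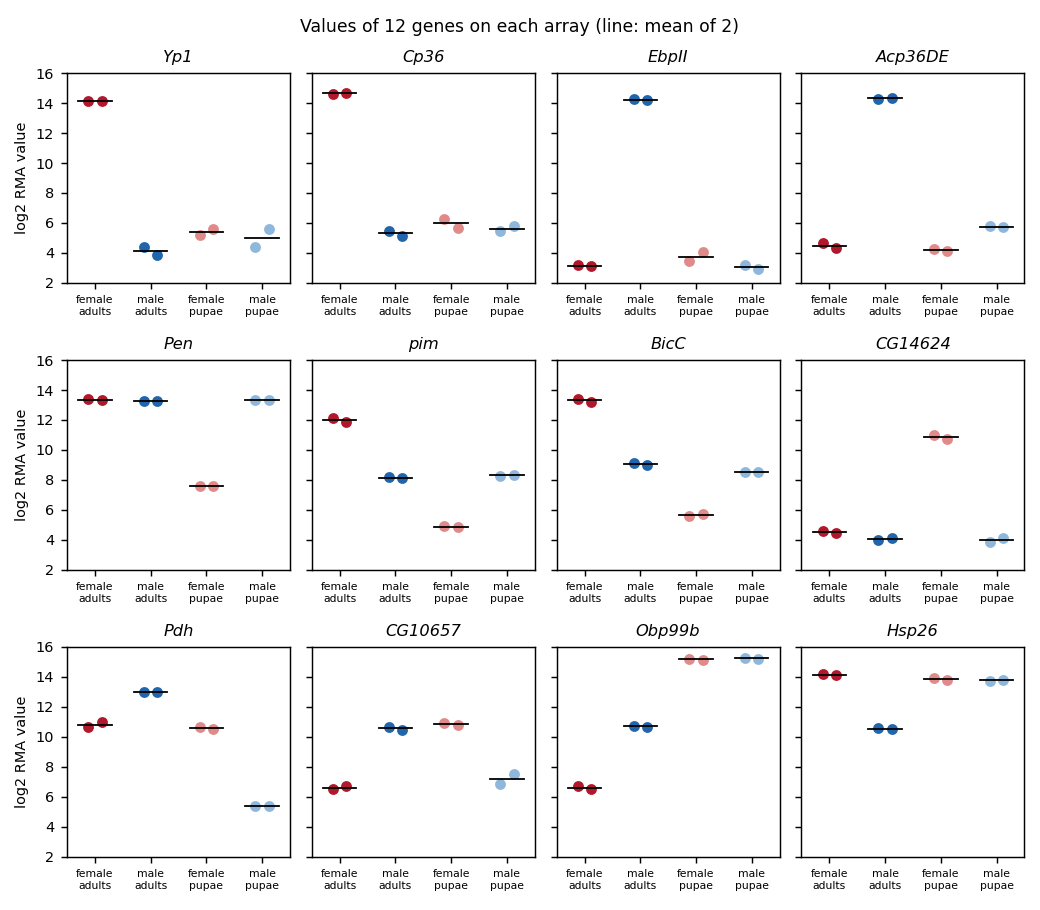
Log2 value of 12 genes on each of the 8 arrays (points, vertical axis), by group, with the mean of the 2 arrays as a line. Female adults alone are high for Yp1 and Cp36, male adults alone are high for EbpII and Acp36DE, female pupae alone are low for Pen, and the sex order turns round for pim, BicC, Pdh and CG10657.

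Genes that set sex and dosage compensation leaned towards a positive interaction. Of 15 measured, 9 had a positive and 2 a negative interaction (median 0.79), against 34.2% and 30.6% of all genes. The acetyltransferase gene mof (2.59 ± 0.20) and msl-3 (1.85 ± 0.16), both of the complex that raises X-linked transcription in males, had positive ones. The gene mof was at 9.07 and 9.20 in female adults, 7.0 and 6.96 in male adults, 7.08 and 6.99 in female pupae and 7.45 and 7.50 in male pupae. Female adults of mof stood above the rest, and male pupae lay above female pupae. The gene msl-2, the male-specific member of that complex, was at 5.47 and 5.54 in female adults, 6.46 and 6.52 in male adults, 6.18 and 6.11 in female pupae and 6.95 and 6.69 in male pupae. It was higher in males at both stages without overlap, and its interaction of -0.31 ± 0.17 was not called (adjusted p = 0.159). The interaction of tra was not called either (-0.20 ± 0.15, adjusted p = 0.29), with values of 9.09 and 9.15 in female adults, 7.88 and 8.02 in male adults, 9.31 and 9.55 in female pupae and 8.02 and 8.11 in male pupae. After quantile normalization tra was called, at -0.59 (adjusted p = 0.00672).

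Probe sets of one gene can read different transcripts, and in this pathway they gave different answers. The brightest probe set of dsx was at 5.48 and 5.58 in female adults, 8.56 and 8.47 in male adults, 7.45 and 7.58 in female pupae and 8.40 and 8.34 in male pupae. It was male-higher at both stages, with an interaction of -2.13 ± 0.22 (adjusted p = 1.1e-05). The other dsx probe set was female-higher at both stages, by 2.91 in adults and 5.67 in pupae, so that its negative interaction (-2.76 ± 0.31) marks a smaller female excess in adults. For Sxl the brightest of 3 probe sets gave 1.21 ± 0.13, and the others gave -3.13 ± 0.16 and -0.92 ± 0.16. The probe set with -3.13 was at 5.38 and 5.31 in female adults, 5.58 and 5.85 in male adults, 7.69 and 7.77 in female pupae and 4.98 and 4.98 in male pupae, so that it was female-higher in pupae by 2.75 and male-higher in adults (-0.38).

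Such splits were counted over the 1094 genes with more than 1 probe set. All probe sets were called the same way in 259 genes, some were called with none opposite in 479, and none in 293. Probe sets were called in both directions in 63 genes, and by at least 2-fold each way in 17. One of these, named after its values were seen, is lola, a transcription factor gene with many isoforms. One lola probe set was at 12.28 and 12.42 in female adults, 5.03 and 5.34 in male adults, 7.75 and 7.81 in female pupae and 7.80 and 7.80 in male pupae (interaction 7.19 ± 0.18). Another was at 7.25 and 7.28 in female adults, 7.93 and 8.29 in male adults, 7.95 and 7.95 in female pupae and 7.18 and 7.13 in male pupae (interaction -1.64 ± 0.17).

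The smaller classes hold genes with a 2-fold call in pupae and none in adults. The 116 genes that were male-higher in pupae and without a 2-fold call in adults had median levels of 8.46 in female adults, 8.43 in male adults, 7.30 in female pupae and 8.94 in male pupae. The low group was female pupae. Pen, an importin alpha of nuclear import, was at 13.42 and 13.30 in female adults, 13.24 and 13.27 in male adults, 7.58 and 7.62 in female pupae and 13.31 and 13.31 in male pupae. The female pupae stood alone, the other 6 arrays lay between 13.24 and 13.42, and the interaction was 5.82 ± 0.12 (adjusted p = 3.22e-10). Next in this class were Trf4-2 (4.57 ± 0.23), CG8478 (3.79 ± 0.15) and sofe (3.57 ± 0.17). In adults these 3 were female-higher below 2-fold, by 0.98, 0.92 and 0.76.

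The 382 genes that were female-higher in pupae and without a 2-fold call in adults had median levels of 6.29 in female adults, 6.50 in male adults, 8.68 in female pupae and 6.71 in male pupae. CG14624 was at 4.60 and 4.48 in female adults, 3.96 and 4.14 in male adults, 10.99 and 10.71 in female pupae and 3.85 and 4.12 in male pupae, with an interaction of -6.38 ± 0.22 (adjusted p = 4.99e-09). Female pupae alone were high. Cpr72Ec (-5.98), CG11693 (-5.78 ± 0.24) and CG15545 (-5.60 ± 0.52) followed. The class held 14 of the 82 cuticle protein genes, against 382 of all 11982 genes. The female pupal arrays were the least alike of the 4 groups: 84 genes lay at least 1 log2 unit apart between them, against 34 in female adults, 9 in male adults and 12 in male pupae. Of those 84 genes, 18 were in the classes female-higher in pupae, all 18 with the higher value on the second array. CG15545 was one, at 10.97 and 12.53 in female pupae, and its interaction was -6.38 without the first and -4.82 without the second female pupal array.

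The sex difference turned round between the stages, by at least 2-fold at both, in 211 genes. The 52 that were female-higher in adults and male-higher in pupae had median levels of 10.29 in female adults, 7.55 in male adults, 6.18 in female pupae and 8.11 in male pupae. Their change lay in females, with a median of 4.03 against -0.31 in males. The gene pim encodes securin, a regulator of sister chromatid separation. It was at 12.13 and 11.88 in female adults and 8.19 and 8.10 in male adults. In pupae it was at 4.89 and 4.84 in females and 8.29 and 8.34 in males. BicC, a translational repressor of oogenesis, was at 13.39 and 13.23 in female adults, 9.12 and 9.02 in male adults, 5.58 and 5.73 in female pupae and 8.56 and 8.55 in male pupae. Both genes had their lowest values in female pupae and their highest in female adults, with the males between, and the interactions were 7.30 ± 0.16 and 7.14 ± 0.21. CG14036 (7.32 ± 0.21) and BigH1, the linker histone of germ cells and early embryos (6.74 ± 0.16), had the same order. This class held 6 of the 47 oogenesis genes and 6 of the 42 genes of DNA replication and mitosis, against 52 of all 11982 genes.

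The 159 genes that were male-higher in adults and female-higher in pupae had median levels of 7.82 in female adults, 9.47 in male adults, 8.74 in female pupae and 7.38 in male pupae. CG10657 was at 6.53 and 6.69 in female adults, 10.68 and 10.48 in male adults, 10.90 and 10.76 in female pupae and 6.82 and 7.53 in male pupae (interaction -7.63 ± 0.30). The high groups were thus male adults and female pupae. Pdh, a dehydrogenase of the retina, was at 10.65 and 10.97 in female adults, 12.97 and 13.01 in male adults, 10.65 and 10.50 in female pupae and 5.38 and 5.41 in male pupae (interaction -7.36 ± 0.19). For Pdh the outlying group was male pupae, while the female stages lay close together. MFS9 (-6.66 ± 0.27) and Gld, glucose dehydrogenase (-6.57 ± 0.29), completed the leading genes. Gld was at 6.08 and 6.12 in female adults against 11.44 and 11.35 in male adults, and at 11.88 and 12.02 in female pupae against 10.51 and 10.85 in male pupae. This class held 6 of the 27 muscle genes and 4 of the 22 eye genes, against 159 of all 11982 genes. Its size depended on the scaling, with 88 genes after recentring and 243 after array-median centring.

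The larval arrays give a readout of these classes from other animals, although all 12 arrays share 1 variance estimate in the fit. Over all genes, 24.3% were female-higher and 16.7% male-higher in larvae. Of the 52 genes that were female-higher in adults and male-higher in pupae, 38 (73.1%) were male-higher in larvae and 0 female-higher. Of the 116 genes that were male-higher in pupae without a 2-fold call in adults, 77 (66.4%) were male-higher in larvae and 6 (5.17%) female-higher. On the deposited scale most genes of both classes were thus male-higher in larvae as in pupae. With single arrays left out, larval ones included, the male-higher counts were 29 to 38 of the 52 and 68 to 80 of the 116. Among the scaling alternatives the male-higher counts were 25 to 43 of the 52 and 54 to 86 of the 116. The lowest of each came after array-median centring and were no longer most of the class. For Pen the larval female minus male difference was -1.30 and for CG14036 -3.25, against -0.68 for pim.

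**Figure D5:**
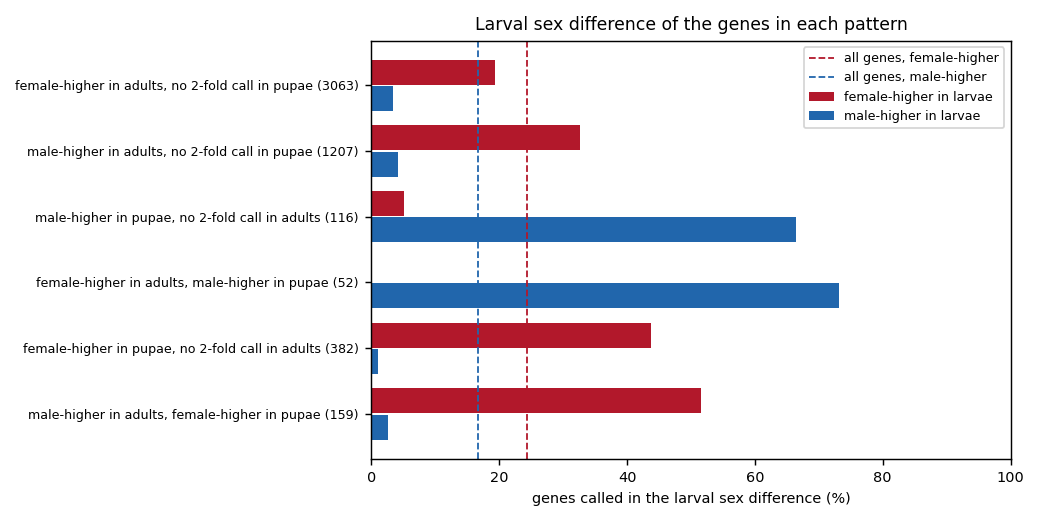
Percent of the genes in each class (number in brackets) that were called female-higher (red) or male-higher (blue) in larvae, with dashed lines at the value over all genes, 24.3% and 16.7%. The blue bars pass their line in the classes that were male-higher in pupae, at 66.4% and 73.1%.

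For the classes that were female-higher in pupae, 167 of 382 (43.7%) and 82 of 159 (51.6%) were female-higher in larvae, and 4 of each (1.05% and 2.52%) male-higher. These female-higher counts depended on the scaling, with 66 of 382 and 46 of 159 after recentring and 335 and 130 after array-median centring. The share of all genes that were female-higher in larvae moved with them, to 7.59% after recentring and 72.8% after array-median centring. They also depended on 1 larval array: without the second male larval array 86 of 382 and 55 of 159 were female-higher, against 11.8% of all genes. Of the classes with a 2-fold call in adults alone, 103 of 3063 (3.36%) female-higher and 50 of 1207 (4.14%) male-higher genes were male-higher in larvae. Their female-higher counts in larvae were 592 (19.3%) and 395 (32.7%), but 2629 and 994 after array-median centring, 93 and 148 after recentring, and 221 to 589 and 216 to 414 without single arrays, with both lowest values without the second male larval array. The female larval arrays were the least alike pair of the series, with 109 genes at least 1 log2 unit apart. Of 157 and 258 genes that were male-higher at both stages with a positive and a negative interaction, 98.1% and 93.0% were male-higher in larvae.

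The chromosomes of the called genes were also counted, over 11884 genes with a known location. The X chromosome held 15.7% of all genes, 17.9% of those with a positive and 14.0% of those with a negative interaction. By class the share was 5.77% in the 52 genes that were female-higher in adults and male-higher in pupae, 19.5% in the 3063 genes female-higher in adults, and 9.95% in the 1207 genes male-higher in adults. It was 31.6% and 33.3% of the 38 and 12 genes that were female-higher at both stages with a positive and a negative interaction. The classes are of unequal size, and the shares are given as a description.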

How the data were processed

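The authors deposited a table of log2 expression values, 1 per probe set and array, with no missing value. The submitters' processing notes name RMA, which corrects background, normalizes arrays and summarises probes. Which version and settings they used is not given in the sources used here. Control probe sets (183) were left out. Gene names were taken from GEO's annotation of the platform: of 18769 probe sets, 13647 had 1 gene, 402 several and 4720 were unnamed here. The probe set that was brightest on average over the 8 arrays represents a gene. Symbols and chromosomes came from RefSeq (assembly Release 6).

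Means of the 6 groups were fitted to all 12 arrays with limma (version 3.58.1; lmFit and eBayes without trend) in R (version 4.3.3), with 6 residual and 4.1 prior degrees of freedom. The interaction is a contrast of that fit, and the Benjamini-Hochberg adjustment ran over all 18769 probe sets. The script was tested on simulated data.

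The subject, the 23 gene lists (668 of 846 entries measured; under 80% in 9 lists) and the tests were chosen with earlier results of these data known. A gene found in more than 1 list was counted in the first only, such as Sxl with oogenesis and maternal supply. Named are the 8 largest interactions each way, 4 genes per class, up to 3 called members per list and a fixed set of sex genes, with further list members as examples. The alternatives were a fit of 8 arrays, a replicate block, trend and robust eBayes, quantile normalization, array-median centring, recentring (each array centred on its median deviation from the probe set means), a dim filter (above 6 on at least 2 of the 8 arrays), 1 probe set per gene, and each array left out (the 4 larval arrays added after seeing the data). The number of arrays limits the precision.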

Additional observations from a re-analysis of the deposited data

Results flagged for a closer look

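The interaction was called, and the sex difference was called and at least 2-fold at both stages in opposite directions, in 52 genes that were female-higher in adults and male-higher in pupae and in 159 that were male-higher in adults and female-higher in pupae. Genes with a smaller difference at either stage are not among them. In the first set the interaction was 7.32 for CG14036, 7.30 for pim, 7.14 for BicC and 6.74 for BigH1. In the second set it was -7.63 for CG10657, -7.36 for Pdh, -6.66 for MFS9 and -6.57 for Gld. All 8 of these genes kept their direction and their call under each alternative tried.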

How the results depend on the processing

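The number of probe sets called, 9674, was 9614 with the replicate block and 8815 to 9844 with each of the 12 arrays left out in turn (leaving out the 4 larval arrays was chosen after seeing the data). The positive and negative counts were 4614 to 4948 and 4172 to 4896 without single arrays, and those of at least 2-fold 3281 to 3393 and 2839 to 2959. No alternative moved one of these 5 counts by 1.5 times. Of the called probe sets still tested, 88.4% (quantile normalization) to 100% were called again, and 0 with the opposite sign. The labels do not say that replicate numbers pair samples across groups. Deviations from the group mean had correlations of -0.05 to 0.02 between same-numbered pupal and adult arrays of different groups. Low correlations do not show that arrays of the same number had no shared origin. Among the named genes the calls of tra and hll changed, as given above, and no interaction changed sign with a call. The class sizes moved most under array-median centring, to 501 (male-higher in adults), 1175 (female-higher in pupae), 950 (same direction), 1436 (no 2-fold call) and 243, and under recentring the class female-higher in pupae had 209 genes. The larval counts of the same genes moved as well. Under quantile normalization 1163 of the class female-higher in adults and 11 of the class male-higher in pupae were female-higher in larvae. Under array-median centring the female-higher counts were 2629 (female-higher in adults), 994 (male-higher in adults), 25 (male-higher in pupae), 335 (female-higher in pupae), 2 and 130 (the classes that turned round towards females and towards males) and 57 (same direction). The male-higher counts there were 17, 22, 1 (female-higher in pupae), 25 and 1 (the classes that turned round). Under recentring the female-higher counts were 93, 148, 2, 66, 46 (turned towards males) and 8 (same direction), and the male-higher counts 277, 92 and 9 (turned towards males). The larval counts were not run with the fit of 8 arrays, which holds no larvae. The cause of these shifts was not tested. Without single arrays the female-higher larval counts were 221 to 589 (female-higher in adults), 216 to 414 (male-higher in adults), 3 to 7 (male-higher in pupae), 86 to 184 (female-higher in pupae), 55 to 82 (turned towards males) and 10 to 24 (same direction). The male-higher ones were 35 to 112, 31 to 65, 68 to 80, 1 to 8, 2 to 6 and 381 to 395 in the same order, and 29 to 38 of the 52. The lowest of the first 5 female-higher counts came without the second male larval array. Dim probe sets compress differences, and 12812 probe sets passed the dim filter.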

Other observations

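Further gene families were chosen by symbol after the values were seen, and their counts are given as a description. All 26 proteasome subunit genes had a positive interaction (median 1.24), with 26 of 26 higher in adult than in pupal females and 21 of 26 lower in adult than in pupal males. Of 69 mitochondrial ribosomal protein genes, 48 had a positive and 2 a negative interaction (median 0.60), and of 40 translation initiation factor genes 28 and 0 (median 0.64). Subunits of oxidative phosphorylation went the other way, with 50 of 66 negative and 1 positive (median -1.06), and 49 of the 66 were higher in adult than in pupal males.

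Genes of detoxification also leaned towards males. Of 81 cytochrome P450 genes, 58 had a negative and 6 a positive interaction (median -1.30), of 35 UDP-glycosyltransferase genes 19 and 3 (median -0.61) and of 34 glutathione S-transferase genes 23 and 5 (median -0.84). Of 165 gustatory and odorant receptor genes, most of them dim, 21 had a negative and 2 a positive interaction. The negative count was 10 to 28 with single arrays left out, 11 after quantile normalization and 14 after array-median centring. Over all genes the shares were 30.6% negative and 34.2% positive.

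Genes known only by a CG or CR number made up 44.1% of all genes, 59.7% of the 382 female-higher in pupae without a 2-fold call in adults, 64.3% of the 465 with the same direction at both stages and 31.3% of the 3063 female-higher in adults. Of 77 long non-coding RNA genes, 8 had a positive (10.4%) and 12 a negative interaction (15.6%), against 34.5% and 30.8% of protein-coding genes.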
